A study of Drosophila melanogaster with 12 samples.

Results

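Transcript levels of HNF4 mutant and control larvae kept on food throughout life are compared here, in 6 of the 12 arrays of the series, 3 for each genotype. All 9669 probe sets of the authors' dChip table entered the comparison, and the probe sets that this table lacks were taken from the series matrix. Control larvae were transheterozygous for precise excisions of the P-element insertions EP2449 and KG08976, and mutant larvae were transheterozygous for a pair of deletion alleles of HNF4, labelled del33 and del17. Both genotypes were staged as late L2, and RNA was extracted with Trizol from whole larvae that looked healthy and had molted to L3, the age given as mid-L3. The other 6 arrays hold the same genotypes after 24 h without food in a dish with buffer-soaked paper, and they enter the fit as groups of their own. Each genotype is 1 combination of alleles, so loss of HNF4 and anything else carried on those chromosomes cannot be told apart. In RNA from whole larvae, fewer cells of a type and less RNA per cell cannot be told apart either.

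HNF4 is a nuclear receptor, a transcription factor that binds DNA through a zinc finger domain and can hold fatty acids in its ligand pocket. In mammals HNF4A drives genes of lipid, glucose and drug metabolism in liver and gut, and in fly larvae HNF4 is known from midgut, fat body and Malpighian tubules. Fatty acids are used as fuel after they are activated to acyl-CoA and carried into mitochondria as carnitine esters. There β-oxidation shortens them by repeated rounds of dehydrogenation, hydration, a second dehydrogenation and thiolysis. Very long and branched chains are first shortened in peroxisomes, which import their enzymes through a set of proteins called peroxins.

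The fed arrays had similar overall brightness, with median expression values of 483 to 520 in the dChip table. Values are the authors' dChip expression values on a linear scale and are given in the order of replicates 1, 2 and 3, and differences are mutant minus control on the log2 scale with the standard error of the limma fit. The arrays did not group by genotype alone: the first principal component of the 6 fed arrays held 50.5% of the variance and set controls 1 and 2 and mutant 1, with scores of 20.7, 16.8 and 7.42, against control 3 and mutants 2 and 3, with scores of -17.5, -18.9 and -8.55. The next component, with 19.4% of the variance, separated the genotypes, with scores of 6.59, 4.98 and 14.9 in controls and -13.9, -3.53 and -9.06 in mutants. Lsp2, a storage protein that the fat body makes during the L3 stage, followed the first split with 18373, 16372 and 290.4 in the control arrays and 13857, 328 and 780.0 in the mutant arrays, and so did Obp99b, an odorant-binding protein, with 17233, 19436 and 798 in the control arrays and 10822, 153 and 605 in the mutant arrays. Neither passed the test between genotypes (Lsp2 -1.54 ± 1.54, adjusted p = 0.754; Obp99b -2.69 ± 1.42, adjusted p = 0.528). Control 3 was more than 2-fold off the mean of the other controls at 217 probe sets, against 38 between controls 1 and 2. None of the 9 measured genes of a mid-L3 staging list passed the test, nor did any gene of the lists of fat body, midgut, muscle, neuron and glia, hemocyte, oenocyte and Malpighian tubule, salivary gland, male germline and proliferating tissue markers. Over all probe sets 1.05% passed, so lists this short would often hold no call. Of the fat body markers measured besides Lsp2, apolpp, the lipoprotein precursor, read 23810.4, 22949 and 20997 in the control arrays and 22565, 21526 and 20900.3 in the mutant arrays, and Lsd-1, a lipid droplet protein, read 4404, 4621 and 4474 in the control arrays and 3484, 3744 and 3511 in the mutant arrays. The summed level of the 3 fat body markers, Lsp2 included, was 46588, 43942 and 25761 in controls and 39906, 25598 and 25191 in mutants. Leaving out control 3 keeps controls 1 and 2, both high in Lsp2, against mutants of which 2 and 3 were low. Genotype is then partly confounded with this split, and without control 3 Lsp2 stood at -3.51 and Obp99b at -4.19. Changes called below only without control 3 cannot be told apart from the split. Beyond the values given below with Lsp2 as a covariate, the part of this split between arrays in the results was not tested.

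**Figure D1:**
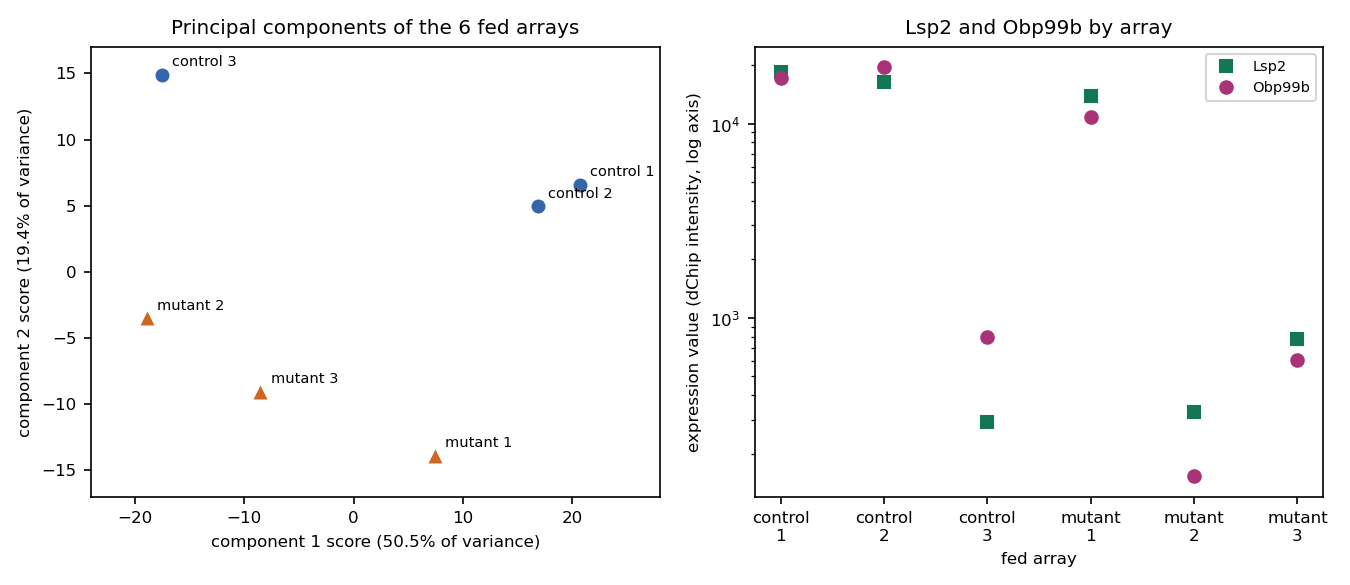
The left panel plots the scores of the 6 fed arrays on the first and second principal components (50.5% and 19.4% of the variance), with circles for controls and triangles for mutants; control 3 lies on the side of mutants 2 and 3 on the first axis and apart from them on the second. The right panel plots the expression values of Lsp2 and Obp99b per array on a log axis, both high in controls 1 and 2 and mutant 1 and low in the other arrays.

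The targeted gene was measured first. The Hnf4 probe set read 1327, 1207 and 1228 in the control arrays and 1641, 1540.4 and 1482 in the mutant arrays, a difference of 0.31 ± 0.08 that missed the threshold (adjusted p = 0.133), and every mutant value lay above every control value. In the series matrix the same probe set read 941, 1026 and 963 in controls and 2155, 2165 and 2109 in mutants, a difference of 1.13 ± 0.12 with an adjusted p of 0.00447. Whether the probes lie inside the deleted stretch is not given in the sources used here, so this level does not check the labels.

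In fed larvae 102 of 9669 probe sets (1.05%) passed an adjusted p of 0.05, and most of them fell in the mutants. The 84 that fell were 0.869% of all tested and the 18 that rose were 0.186%. The median difference was -0.83 among those that fell and 0.77 among those that rose, and 34 changed at least 2-fold, 29 of them downward. Over all probe sets the median difference was -0.01, with quartiles of -0.11 and 0.10. Mutant and control values did not overlap at any of the 102, and they did not overlap at 13.6% of all probe sets. The 102 were picked by the test of that same difference. Their separation, also where it is described for genes below, is therefore no further evidence. Of the 102, 88 carried 1 gene symbol, 75 of which fell and 13 rose. Leaving out control 3 gave 272 calls (2.81%), of which 193 were lower (2.0%) and 79 higher (0.817%) and 93 were among the 102. In that fit genotype partly follows the Lsp2 split. The count was 70 without control 1, 59 without control 2, 64 without mutant 1, 59 without mutant 2 and 47 without mutant 3. With the log2 level of Lsp2 as a covariate, an alternative added after the data were seen, 141 probe sets passed, 97 of them among the 102. Because mutant and control values did not overlap at the 102, leaving out control 3 or another array could not turn a direction. All 102 kept their direction with the Lsp2 covariate and in the series matrix, in which 34 of them passed. Without adjustment 1071 probe sets had p under 0.05. The starved arrays share in the estimate of spread in these fits. With the fed arrays alone 41 probe sets passed, and 53 of the 88 genes with 1 symbol lost their call. With the starved arrays in the fit, 36 of the 88 kept their call whichever fed array was left out. These were yip2, Acadvl, Mtpbeta, CG4598, CPT2, scu, whd, Arc42, colt, CROT, CG9577, Acox57D-d, Pex5, Hacl, Hsdl2, Dhrs4, Tmlh, CG5321, CG6178, GstT3, Cyp6a18, clt, LManIII, Obp56e, CG17477, CG31832, CG18473, CG10195, Trs23, SLC5A11 and CG4615 among the falls and CG9289, Ugt35C1, CG5892, CG16762 and Pgant6 among the rises. Every other called gene named below lost its call without at least 1 of the 6 fed arrays. The calls lost were 34 without control 1, 39 without control 2, 7 without control 3, 38 without mutant 1, 40 without mutant 2 and 46 without mutant 3. In 17 of the 102 the lower group was dim, meaning that its mean lay under 250.5, the lower quartile of the dimmest array.

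**Figure D2:**
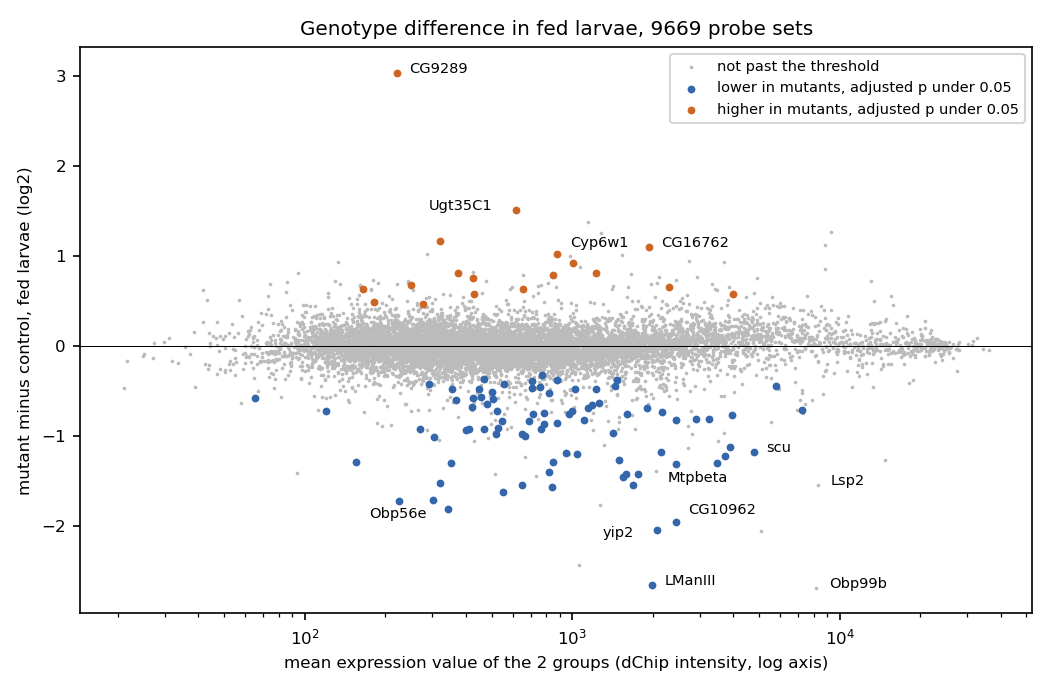
Each point is 1 of 9669 probe sets, plotted by its mean expression value over both fed groups (log axis) and by mutant minus control in log2. The 84 called probe sets that fell reach -2.66 (LManIII), the 18 that rose reach 3.04 (CG9289), and Lsp2 and Obp99b lie far below 0 without passing the test.

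Mitochondrial β-oxidation was the gene list with the most calls of the 39 examined: 10 of its 19 measured genes fell and none rose. Of all probe sets 0.869% fell and 0.186% rose, and these shares are the background for the list counts below. The median of the list was -0.44 against -0.01 for all probe sets. Without each fed array in turn 9 or 10 fell, and 10 fell in the series matrix. The enzymes of the spiral itself led the list. yip2, a thiolase that cleaves acetyl-CoA off the shortened chain, read 3859, 3339 and 2844 in the control arrays and 985, 689 and 762 in the mutant arrays. Its level was 4.14-fold lower in the mutants (-2.05 ± 0.16, adjusted p = 4.9e-05), and the highest mutant array was far under the lowest control. Acadvl, the very long chain acyl-CoA dehydrogenase that opens the spiral, read 3518, 3359.7 and 3544 in the control arrays and 1357, 1475 and 1370.0 in the mutant arrays (-1.31 ± 0.08, adjusted p = 6.77e-06). Mtpbeta, the β subunit of the trifunctional protein, read 4965, 5213 and 4728 in the control arrays and 2030.2, 2193 and 1825 in the mutant arrays (-1.30 ± 0.10, adjusted p = 3.91e-05). Both were even within a genotype, and neither set controls 1 and 2 apart from control 3. scu, a mitochondrial hydroxyacyl-CoA dehydrogenase, was at 6255, 7201 and 6383 in controls and 2901, 2956 and 2922 in mutants (-1.17 ± 0.12, adjusted p = 0.000353). CG4598, an enoyl-CoA isomerase by its annotation in sequence databases, read 2162, 2206 and 1944 in the control arrays and 935, 826 and 869 in the mutant arrays (-1.26 ± 0.11, adjusted p = 0.000169). Arc42, a short chain acyl-CoA dehydrogenase, read 1229, 1087 and 1072 in the control arrays and 647, 619.9 and 605 in the mutant arrays (-0.85 ± 0.09, adjusted p = 0.00064). These falls of 2.40-fold for CG4598 and 1.81-fold for Arc42 were smaller than the 4.14-fold fall of yip2. wal, the α subunit of the electron transfer flavoprotein that takes electrons from the dehydrogenases, read 6862, 6426 and 6624 in the control arrays and 4501, 5541 and 4654 in the mutant arrays (-0.44 ± 0.08, adjusted p = 0.0327), the smallest called change of the list. The call of wal was lost without control 1, control 2, mutant 1 or mutant 3.

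The genes that carry fatty acids into the mitochondrion as carnitine esters, whd, colt and CPT2, all fell. whd, the outer carnitine palmitoyltransferase that commits an acyl chain to import, read 1089, 1017 and 920.4 in the control arrays and 558, 481 and 625 in the mutant arrays (-0.87 ± 0.10, adjusted p = 0.0015). colt, the carrier that exchanges acylcarnitine for carnitine across the inner membrane, read 3221, 2909.7 and 3265 in the control arrays and 1795, 1805 and 1726 in the mutant arrays (-0.82 ± 0.09, adjusted p = 0.00133). CPT2, the inner carnitine palmitoyltransferase, read 1622, 1311 and 1427 in the control arrays and 659, 640.2 and 592 in the mutant arrays (-1.20 ± 0.09, adjusted p = 4.89e-05). The fold changes were 1.82, 1.76 and 2.30, and controls and mutants were separate for each. Among the genes with the largest falls, Tmlh and CG5321 are annotated as enzymes that make carnitine. Tmlh, the trimethyllysine hydroxylase that starts carnitine synthesis, read 1271, 1183 and 1102 in the control arrays and 423, 396 and 543 in the mutant arrays (-1.40 ± 0.14, adjusted p = 0.000438). CG5321, annotated as a gamma-butyrobetaine hydroxylase of the last step, read 474, 463 and 564 in the control arrays and 187, 199.6 and 224 in the mutant arrays (-1.30 ± 0.12, adjusted p = 0.000174), and its mutant level was dim. In the series matrix the difference of CG5321 was -3.82 (adjusted p = 0.00204), and that of yip2 -2.85 (adjusted p = 0.000237).

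The 9 β-oxidation genes that did not pass ran from -0.30 to 0.18. Echs1, the enoyl-CoA hydratase, stood at -0.30 ± 0.09 (adjusted p = 0.174). Acat1, the acetoacetyl-CoA thiolase that also serves ketone body metabolism, stood at 0.17 ± 0.10 (adjusted p = 0.575). CG4594, listed with the enoyl-CoA isomerases, stood at 0.13 ± 0.10 (adjusted p = 0.672), while its listed relative CG4598 fell.

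**Figure D3:**
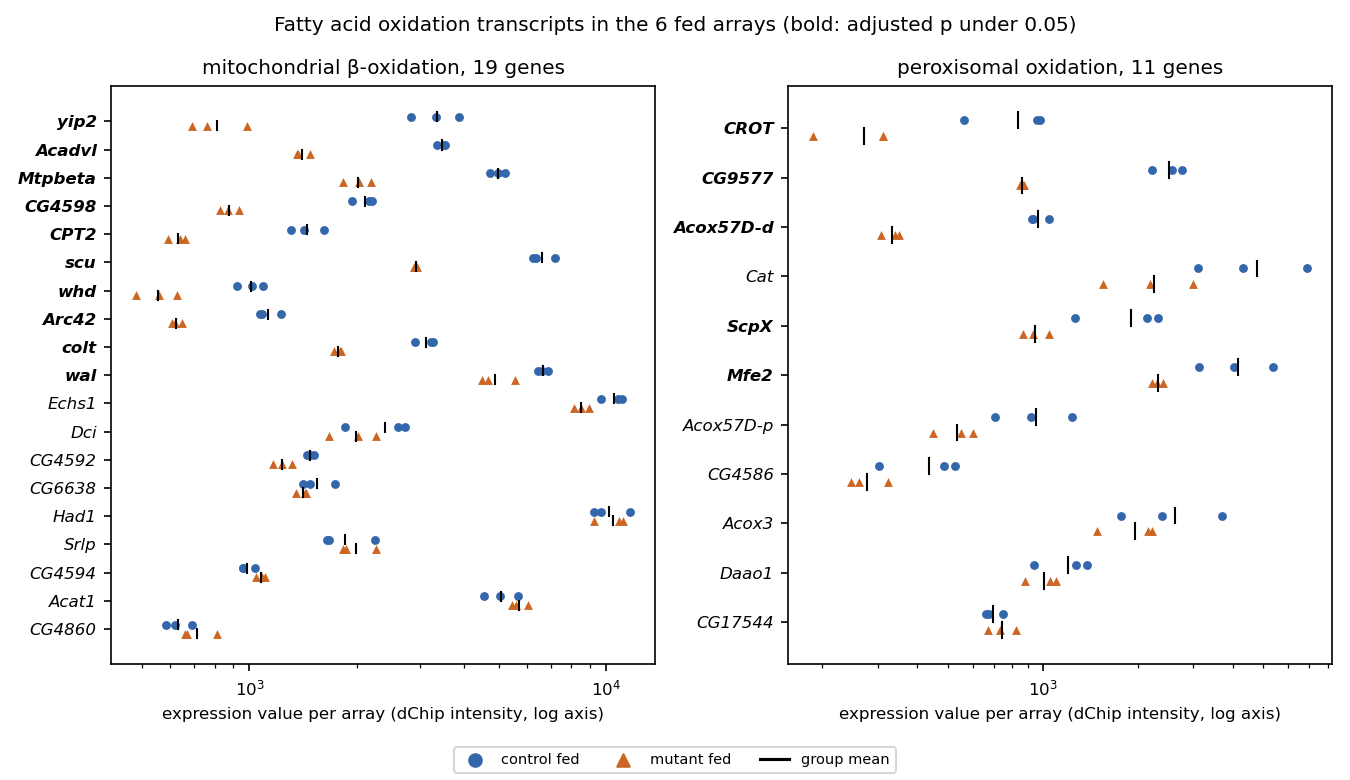
Expression values of the 19 mitochondrial and 11 peroxisomal genes in each fed array on a log axis, with circles for controls, triangles for mutants and black bars for group means; names in bold passed an adjusted p of 0.05. The called genes show separate controls and mutants, with yip2 (3859, 3339 and 2844 against 985, 689 and 762) and CROT (981, 959 and 563 against 312, 187 and 313) at the top.

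In the peroxisomal list 5 of 11 measured genes fell and none rose, with a median of -0.81. Without control 3, 8 fell, and without any other single fed array 3 did, the calls lost being those of ScpX and Mfe2. Only 2 of the 11 fell in the series matrix, and 2 did with the fed arrays alone. In the series matrix CROT stood at -1.08 (adjusted p = 0.35), Mfe2 at -0.84 (adjusted p = 0.246) and ScpX at -0.88 (adjusted p = 0.306). CROT, the carnitine octanoyltransferase that passes shortened chains on toward mitochondria, read 981, 959 and 563 in the control arrays and 312, 187 and 313 in the mutant arrays (-1.62 ± 0.23, adjusted p = 0.00517). Control 3 lay nearer the mutants than the other controls did, and without it the difference was -1.88. CG9577, a predicted enoyl-CoA isomerase, read 2767, 2565 and 2227 in the control arrays and 867, 875 and 845 in the mutant arrays (-1.54 ± 0.10, adjusted p = 8.58e-06). Acox57D-d, an acyl-CoA oxidase of the first peroxisomal step, read 1043, 933 and 928 in the control arrays and 341, 307 and 351 in the mutant arrays (-1.54 ± 0.09, adjusted p = 6.77e-06). These enzymes fell about 3-fold, with nearly equal mutant arrays for CG9577 and Acox57D-d and a low mutant 2 for CROT. Mfe2, which carries the hydratase and dehydrogenase steps on 1 chain, read 5352, 4027 and 3119.7 in the control arrays and 2406, 2223 and 2309.8 in the mutant arrays (-0.81 ± 0.16, adjusted p = 0.0395). ScpX, the sterol carrier protein with a thiolase domain, read 2326, 2136 and 1262 in the control arrays and 1046, 864 and 929 in the mutant arrays (-0.97 ± 0.19, adjusted p = 0.0395). Both were lower in control 3 than in the other controls. Catalase (Cat), which the list holds as the enzyme that removes the hydrogen peroxide of this pathway and not as an oxidation enzyme, read 6891, 4301 and 3100.0 in the control arrays and 2999, 1552 and 2181 in the mutant arrays (-1.06 ± 0.29). It missed the threshold with all arrays (adjusted p = 0.165) and fell without control 3 (-1.33, adjusted p = 0.0362).

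Pex5, PMP34 and Hacl also fell among genes of the peroxisome. Of the 6 peroxins measured, 1 fell, against 0.869% of all probe sets. Pex5, the import receptor for most matrix enzymes, read 1242, 1206 and 1217 in the control arrays and 731, 712 and 728 in the mutant arrays (-0.75 ± 0.07, adjusted p = 0.00016), with nearly equal values within each genotype. Pex13, a part of the docking complex, stood at -0.57 ± 0.13 (adjusted p = 0.0644). PMP34, a carrier of the peroxisomal membrane outside the lists, read 698, 574 and 546 in the control arrays and 409.6, 376 and 419.9 in the mutant arrays (-0.59 ± 0.09, adjusted p = 0.0102). Hacl, the lyase that splits hydroxylated acyl-CoA in α-oxidation of branched chains and that is in no list, read 3681, 2941 and 2342 in the control arrays and 1390.5, 1212 and 1306 in the mutant arrays (-1.18 ± 0.14, adjusted p = 0.0015). Among probe sets found only in the series matrix, Amacr, the racemase that prepares methyl-branched acyl-CoA for oxidation, read 507, 507 and 399 in the control arrays and 107, 114 and 73.7 in the mutant arrays (-2.28 ± 0.18, adjusted p = 0.00116). Pex14, the docking partner of Pex5, read 1255, 1099 and 968 in the control arrays and 507, 709 and 623 in the mutant arrays there (-0.86 ± 0.13, adjusted p = 0.0369).

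Of 12 measured acyl-CoA synthetases and fatty acid transporters, which activate and take up fatty acids, 2 fell, against 0.869% of all probe sets, and none rose. The count was 1 without control 1, control 2, mutant 2 or mutant 3 and in the series matrix, the call lost being that of pdgy, and 3 without control 3. CG6178, a predicted acyl-CoA ligase, read 2819, 2353 and 1808 in the control arrays and 789.8, 901 and 868 in the mutant arrays (-1.43 ± 0.14, adjusted p = 0.000278). pdgy, an acyl-CoA synthetase, read 1538, 1584 and 1125 in the control arrays and 909.7, 682 and 804 in the mutant arrays (-0.82 ± 0.14, adjusted p = 0.0166). Controls and mutants were separate for both. Among 14 genes of insulin, FOXO and adipokinetic hormone signalling, 1 fell, against 0.869% of all probe sets. AkhR, the receptor through which adipokinetic hormone calls up fat stores, read 663, 860.5 and 583 in the control arrays and 379.5, 427 and 364 in the mutant arrays (-0.83 ± 0.15, adjusted p = 0.0255). Its call held without control 3 and was lost without any other single fed array and in the series matrix. Its ligand Akh stood at 0.04 ± 0.14 (adjusted p = 0.93), and the insulin receptor InR at -0.12 ± 0.10 (adjusted p = 0.708).

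Fat synthesis and storage gave no call. None of 19 measured genes of lipogenesis and lipid storage passed, against 1.05% of all probe sets, and none did without control 3. At that share a list of 19 would often hold no call, so this does not show the pathway unchanged. The median was -0.10. In starved mutants 9 of the 19 fell and 1 rose, against 3.7% and 3.91% of all probe sets. FASN1, the fatty acid synthase, read 21799, 19291 and 23567 in the control arrays and 20694, 23518 and 20889 in the mutant arrays (0.01 ± 0.13, adjusted p = 0.98). ACC, which makes malonyl-CoA, stood at -0.03 ± 0.20 (adjusted p = 0.962), and its values spread widely within each genotype. Lpin, the phosphatidate phosphatase, stood at -0.43 ± 0.14 (adjusted p = 0.238) and mino, a glycerol phosphate acyltransferase, at -0.38 ± 0.10 (adjusted p = 0.124). None of 10 lipases passed. bmm, the storage lipase of lipid droplets, stood at 0.12 ± 0.16 (adjusted p = 0.822). mag, a secreted gut lipase, read 11172, 7659.6 and 2362 in the control arrays and 7808, 2069 and 4682 in the mutant arrays, highest in the same arrays as Lsp2 (-0.47 ± 0.53, adjusted p = 0.784), and 3 lipases fell without control 3, among them Lip3 (-0.84, adjusted p = 0.00485).

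**Figure D4:**
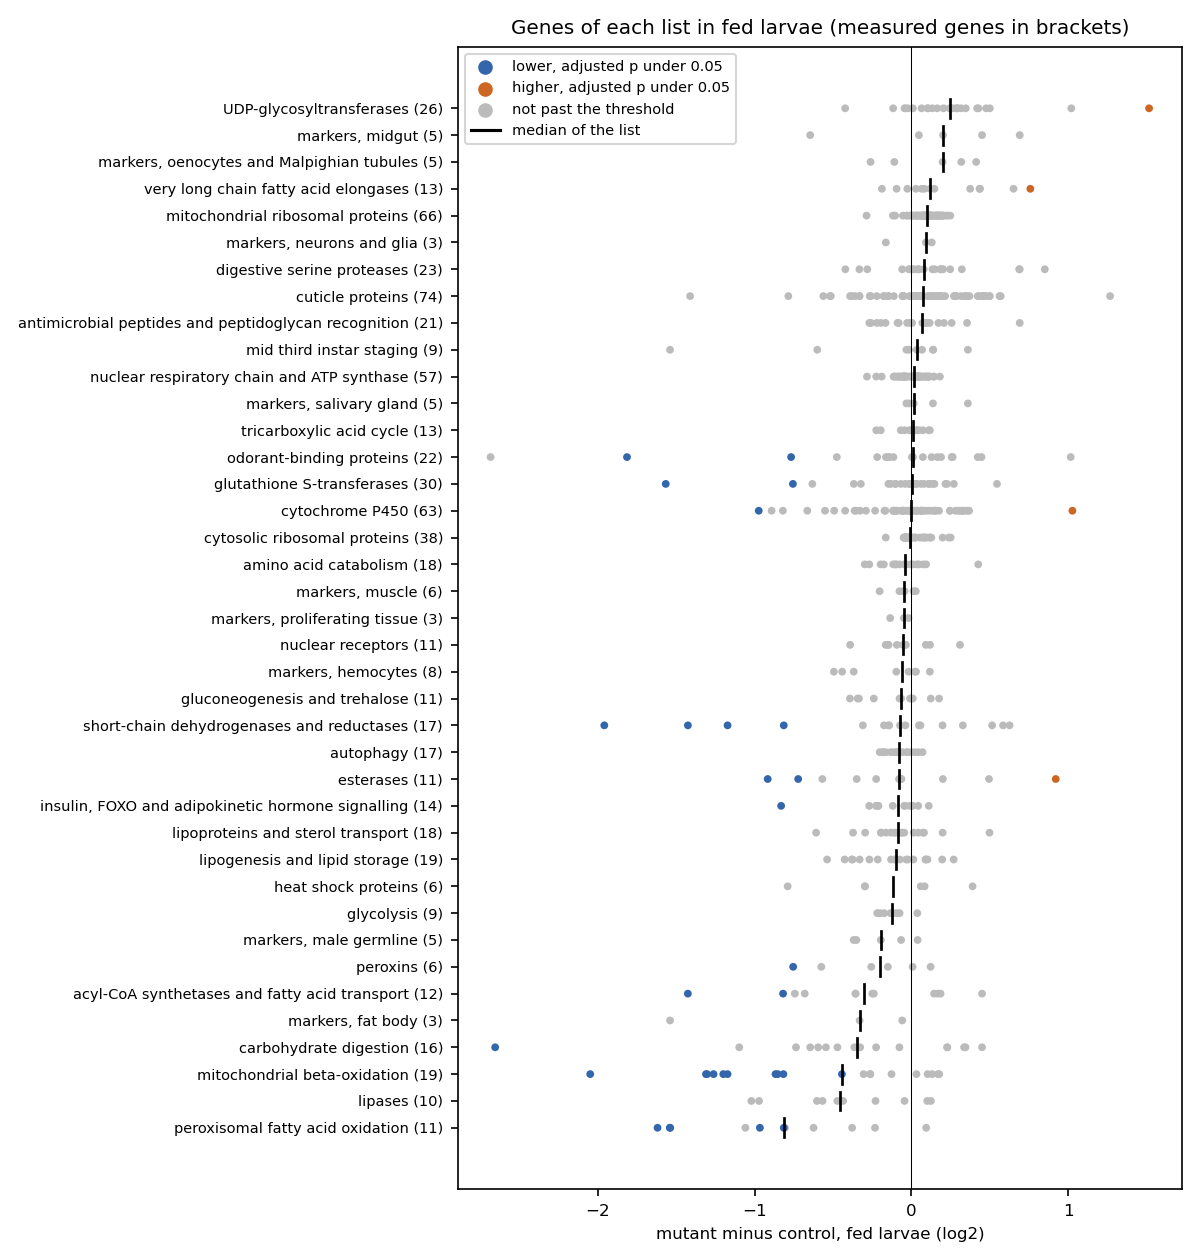
Each point is a measured gene placed by mutant minus control in fed larvae (log2), on 1 line per gene list with the number measured in brackets; blue points fell and orange points rose at an adjusted p of 0.05, and the black bar is the median. The peroxisomal list (median -0.81), the lipases (-0.45) and the mitochondrial β-oxidation list (-0.44) lie farthest left, and the lipases hold no called gene.

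Other pathways of energy metabolism gave no call either. This held for 9 glycolysis genes, 11 of gluconeogenesis and trehalose, 13 of the tricarboxylic acid cycle, 18 of amino acid catabolism and 57 of the nuclear respiratory chain and ATP synthase. Outside energy metabolism, 38 cytosolic and 66 mitochondrial ribosomal proteins gave no call. The median was 0.02 for the respiratory chain, -0.12 for glycolysis and 0.10 for mitochondrial ribosomal proteins, against -0.01 for all probe sets. In all, 26 of the 39 lists, with 450 measured genes, held no called gene, beside 1.05% of all probe sets called. At that share a short list would often hold none, so no call does not show a list unchanged. Of the 88 called genes with 1 symbol, 33 stood in a list and 55 in none. The 11 nuclear receptors measured, Hnf4 among them, gave no call, and 1 of them, EcR, the ecdysone receptor, fell without control 3 (-0.62, adjusted p = 0.0279), with 366, 359.7 and 226 in the control arrays and 272, 236 and 205 in the mutant arrays.

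Short-chain dehydrogenases and reductases, a large family that oxidises alcohols and ketones of lipids and other compounds, had 4 of 17 measured genes fall, scu and Mfe2 included. The share of all probe sets that fell was 0.869%. In this list 2 fell without any single fed array other than control 3 and in the series matrix, and 1 rose without control 3. CG10962 read 3544, 4459 and 3625 in the control arrays and 1142, 1028 and 829 in the mutant arrays (-1.96 ± 0.35, adjusted p = 0.0239). Dhrs4 read 3075, 2497 and 2143 in the control arrays and 892, 964 and 985 in the mutant arrays (-1.43 ± 0.12, adjusted p = 0.000106). For both the highest mutant array was under the lowest control by a wide margin. Hsdl2, a family member outside the list, read 2482, 2282 and 2032 in the control arrays and 862, 791 and 819 in the mutant arrays (-1.45 ± 0.11, adjusted p = 4e-05). CG12171 ran the other way, with 3722, 3407 and 4403 in the control arrays and 5348, 5480.1 and 6429 in the mutant arrays (0.58 ± 0.13, adjusted p = 0.0758), short of the threshold.

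The counts for families that handle foreign compounds and hormones stand beside 1.05% of all probe sets called. Of 30 glutathione S-transferases, which couple glutathione to reactive compounds, 2 fell, and both belong to the theta class. GstT3 read 1498, 1345 and 960.2 in the control arrays and 429, 402 and 431 in the mutant arrays (-1.57 ± 0.21, adjusted p = 0.00307), and GstT1 read 1989, 2072 and 1981 in the control arrays and 1247, 1083 and 1255 in the mutant arrays (-0.76 ± 0.12, adjusted p = 0.00998). The other measured members of that class, GstT2 and GstT4, stood at 0.08 and 0.06. The call of GstT1 was lost without control 2 or mutant 2 and in the series matrix. Among 63 cytochrome P450 genes, oxidases of lipids and foreign compounds, Cyp6w1 rose and Cyp6a18 fell. None rose without control 2, mutant 2 or mutant 3, and 4 fell without control 3. Cyp6w1 read 703, 534 and 508 in the control arrays and 1058, 1217 and 1255 in the mutant arrays (1.03 ± 0.16, adjusted p = 0.0102), and Cyp6a18 read 978, 893 and 715 in the control arrays and 493, 398 and 419 in the mutant arrays (-0.97 ± 0.13, adjusted p = 0.00347). Of 26 UDP-glycosyltransferases, which attach sugars to small molecules, 1 rose, and the median of the list was 0.25. Ugt35C1 read 285, 321 and 354 in the control arrays and 829.8, 978 and 934 in the mutant arrays, a rise of 2.86-fold (1.52 ± 0.09, adjusted p = 6.77e-06). Of 11 esterases, alpha-Est5 rose (0.92 ± 0.18, adjusted p = 0.0395), while Est-Q (-0.92 ± 0.16, adjusted p = 0.022) and clt (-0.72 ± 0.09, adjusted p = 0.0021) fell. The call of alpha-Est5 held without control 1 and was lost without any other single fed array, with the fed arrays alone and in the series matrix. That of Est-Q was lost without control 1, control 2, mutant 1 or mutant 2, and no esterase passed in the series matrix.

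Odorant-binding proteins, small secreted carriers of hydrophobic ligands, gave 2 falls among 22 measured, against 0.869% of all probe sets. Obp56e read 517, 633 and 459 in the control arrays and 149.8, 159 and 145 in the mutant arrays (-1.82 ± 0.11, adjusted p = 6.77e-06), and its mutant level was dim. Obp56d read 4073, 4877 and 6078 in the control arrays and 2903, 2980.2 and 2827 in the mutant arrays (-0.77 ± 0.13, adjusted p = 0.0158), and its call was lost without control 2 or any 1 of the mutants. In the series matrix neither passed, Obp56e standing at -2.67 (adjusted p = 0.0512). Without control 3, 2 other odorant-binding protein genes rose. The largest fall among all called genes was LManIII, an α-mannosidase, with 4822, 4132 and 1450.1 in the control arrays and 635, 325 and 559 in the mutant arrays (-2.66 ± 0.38, adjusted p = 0.00618). Control 3 lay well under the other controls, and without it the difference was -3.20. In the series matrix it was -2.86 (adjusted p = 0.07). Among the 16 carbohydrate digestion genes LManIII was the only call, and 6 fell without control 3. Mal-A4, a maltase, was 1 of these, with 3084, 1890.5 and 638 in the control arrays and 983, 494 and 781 in the mutant arrays, -1.10 ± 0.44 with all arrays (adjusted p = 0.385) and -1.74 without control 3 (adjusted p = 0.00586). The midgut marker sum was 71697, 58728 and 49410 in controls and 63705, 56565 and 66740 in mutants, with no call among its 5 genes with all arrays and 1, LManVI, without control 3, and its part in these values was not tested.

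Further falls of at least 2-fold came from genes in no list. CG17477, a predicted trypsin-like protease, read 480.3, 587 and 327 in the control arrays and 168, 129 and 122 in the mutant arrays (-1.71 ± 0.22, adjusted p = 0.00239). CG12951 read 557, 334 and 172 in the control arrays and 89.8, 87 and 113 in the mutant arrays (-1.73 ± 0.31, adjusted p = 0.0244), and CG9928 read 723, 379 and 346 in the control arrays and 149, 162 and 166 in the mutant arrays (-1.52 ± 0.31, adjusted p = 0.0454). The control arrays of CG12951 and CG9928 spread more than 2-fold, and the mutant levels of all 3 were dim. CG18473 read 1419.8, 1227 and 975 in the control arrays and 606, 444 and 431 in the mutant arrays (-1.29 ± 0.16, adjusted p = 0.00154). Sirup, an assembly factor of succinate dehydrogenase, read 1668, 1531 and 816 in the control arrays and 656, 519 and 521 in the mutant arrays (-1.18 ± 0.24, adjusted p = 0.0467), with control 3 nearer the mutants than the other controls. AANATL5, of the arylalkylamine acetyltransferase family, read 459, 401 and 359 in the control arrays and 246, 159.8 and 204 in the mutant arrays (-1.01 ± 0.16, adjusted p = 0.0113).

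Smaller falls included enzymes and regulators, only some of them with tight replicates. Cds, which makes CDP-diacylglycerol for phospholipids, read 1754, 1488 and 1364 in the control arrays and 926, 1075 and 968 in the mutant arrays (-0.63 ± 0.10, adjusted p = 0.012). SLC5A11, a sodium-coupled solute transporter, read 546, 562 and 532 in the control arrays and 369, 379.9 and 357 in the mutant arrays (-0.57 ± 0.08, adjusted p = 0.0066). Naprt, the first enzyme of NAD synthesis from nicotinic acid, read 880.2, 864 and 821 in the control arrays and 682, 682 and 685 in the mutant arrays (-0.32 ± 0.06, adjusted p = 0.0316), the smallest called difference. Among transcriptional regulators, cwo, a repressor of the circadian clock, stood at -0.47 ± 0.09 (adjusted p = 0.0395), Gug, a corepressor, at -0.36 ± 0.07 (adjusted p = 0.0327) and jim, a zinc finger protein, at -0.37 ± 0.07 (adjusted p = 0.0349). A further probe set of cwo stood at -0.07 (adjusted p = 0.854), and others of jim at -0.38 and 0.09 (adjusted p = 0.106 and 0.881). The call of cwo was lost without control 1, control 3, mutant 1 or mutant 3. Myo95E, a myosin, likewise fell at 1 probe set (-0.72 ± 0.11, adjusted p = 0.00796) and stood at 0.11 at another (adjusted p = 0.697).

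The remaining called falls were mixed. Hacd2, the dehydratase of the cycle that lengthens very long chain fatty acids, read 1261, 1312 and 1005 in the control arrays and 859.5, 814 and 873 in the mutant arrays (-0.48 ± 0.10, adjusted p = 0.0467). prel, a mitochondrial protein of the lipid-transferring PRELI family, read 1448, 1329.6 and 1504 in the control arrays and 952, 1171 and 961 in the mutant arrays (-0.48 ± 0.09, adjusted p = 0.0349). The first was lowest in control 3 among controls and the second highest there, and the call of prel held without mutant 2 but not without any other single fed array. GILT3, of a family of lysosomal thiol reductases, read 834, 998 and 811 in the control arrays and 603, 429 and 457 in the mutant arrays (-0.84 ± 0.13, adjusted p = 0.00804). Root, which encodes the ciliary rootlet protein rootletin, read 559, 625 and 570.1 in the control arrays and 391, 358 and 375 in the mutant arrays (-0.64 ± 0.10, adjusted p = 0.00976). Genes known here by number alone included CG31832 (-1.29 ± 0.20, adjusted p = 0.00826), CG10195 (-0.93 ± 0.12, adjusted p = 0.00307), CG8814 (-0.93 ± 0.18, adjusted p = 0.037) and CG7970 (-0.81 ± 0.14, adjusted p = 0.0157). CG7970 was bright, with 4546, 3579 and 3044 in the control arrays and 2197, 1834 and 2265 in the mutant arrays, while CG31832 was dim, with 234, 264 and 164 in the control arrays and 94.6, 68.4 and 107 in the mutant arrays. CG2604 (-0.65 ± 0.11, adjusted p = 0.0166), CG5167 (-0.69 ± 0.13, adjusted p = 0.0305), CG3603 (-0.69 ± 0.13, adjusted p = 0.0327) and CG3663 (-0.38 ± 0.06, adjusted p = 0.012) fell less. In CG3663 the arrays of a genotype were nearly equal, at 1682, 1669.5 and 1634 in controls and 1271, 1294 and 1265 in mutants.

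The rises were led by CG9289, which read 45.9, 51 and 45.5 in the control arrays and 460.2, 309 and 415 in the mutant arrays, a difference of 8.21-fold (3.04 ± 0.16, adjusted p = 6.77e-06). The control level was dim on every array, and no mutant array was. CG16762 read 1481, 1069.8 and 1156 in the control arrays and 2469, 2651 and 2757 in the mutant arrays (1.10 ± 0.13, adjusted p = 0.0015), and CG5892 read 228, 197 and 167 in the control arrays and 451, 356 and 524 in the mutant arrays (1.16 ± 0.17, adjusted p = 0.00745). Pgant6, a transferase that starts O-linked glycans, read 1796, 1782 and 1776 in the control arrays and 3023, 2593 and 2864 in the mutant arrays, with nearly equal controls (0.66 ± 0.08, adjusted p = 0.00154). CG16904, annotated as a very long chain fatty acid elongase and the only call among 13 elongases, read 278, 296 and 382 in the control arrays and 506, 604 and 499 in the mutant arrays (0.76 ± 0.14, adjusted p = 0.0327). Its call held without control 3 and was lost without any other single fed array and in the series matrix. CG17560, of the fatty acyl-CoA reductase family, read 612, 590.2 and 657 in the control arrays and 1048, 1235 and 945 in the mutant arrays (0.79 ± 0.15, adjusted p = 0.0362), and its call was lost with Lsp2 as a covariate and without any single fed array but control 3. CG13284 (0.81 ± 0.13, adjusted p = 0.012), CG13102 (0.58 ± 0.11, adjusted p = 0.0362) and CG32750 (0.58 ± 0.12, adjusted p = 0.0467) also rose, and the call of CG32750 held without control 1 but not without any other single fed array. In the series matrix CG32750 and CG5892 stood at 1.24 and 2.09 (adjusted p = 0.133 and 0.314), and Pgant6 at only 0.18 (adjusted p = 0.787).

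Several of the called genes lie close to Hnf4 on chromosome arm 2L, by the gene order of the RefSeq annotation of Release 6 plus ISO1 MT. Counting measured genes outward from Hnf4, Trs23, a subunit of the TRAPP vesicle tethering complex, is the nearest on 1 side, and CG9289 is the third on that side. LManIII is the third on the opposite side, and CG13102 the 20th. Farther out on that side, yip2 and CG4598 of the β-oxidation list are the 57th and 59th. Amacr, measured only in the series matrix, also lies on 2L. Trs23 read 509.7, 555 and 555 in the control arrays and 269, 296 and 289.6 in the mutant arrays (-0.92 ± 0.07, adjusted p = 6.35e-05), with close values within each genotype. The genes between did not pass in the dChip table: PrBP stood at 0.07 ± 0.24 (adjusted p = 0.935), CatB at -0.28 ± 0.12 (adjusted p = 0.398) and raw at 0.02 ± 0.07 (adjusted p = 0.924). In the series matrix PrBP fell (-1.12, adjusted p = 0.014), while CatB and raw stood at -0.01 and 0.17 and did not pass. CG9289 stood there at 3.68 (adjusted p = 0.0113). LManV and LManVI, the next mannosidases of the same cluster, stood at -0.60 ± 0.28 and -0.65 ± 0.35 (adjusted p = 0.466 and 0.536), and both fell without control 3 (-0.95 and -1.13). Within the 10 nearest measured genes on each side 3 of 20 were called (15%), within 50 on each side 6 of 100 (6%), and within 200 on each side 11 of 400 (2.75%), against 1.05% of all probe sets. By arm, 21 of 1331 genes were called on 2L (1.58%), 26 of 1857 on 3R (1.40%), 14 of 1154 on X (1.21%), 14 of 1540 on 2R (0.909%) and 11 of 1483 on 3L (0.742%). The alleles differ between genotypes on this arm, so loss of HNF4 and differences carried near it cannot be told apart for these genes, yip2, CG4598 and Amacr included.

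The series matrix added 9100 probe sets absent from the dChip table, most of them dim, with a median value of 29.1 and 35.8% of fed values under the floor of 16. Of these, 16 passed (0.176%), 9 higher and 7 lower in mutants, and 631 had an unadjusted p under 0.05. Beside Amacr and Pex14, CG14787 fell, with 352, 359.8 and 315 in the control arrays and 124, 103 and 95.6 in the mutant arrays (-1.68 ± 0.12, adjusted p = 0.00116). CG7900 read 1439, 1646 and 1374 in the control arrays and 682, 656 and 863 in the mutant arrays (-1.02 ± 0.15, adjusted p = 0.031). Hus1-like, a homologue of a DNA damage checkpoint clamp protein, rose, with 134, 99.2 and 159 in the control arrays and 340.5, 289 and 353 in the mutant arrays (1.34 ± 0.20, adjusted p = 0.0297). CG12229 rose as well, with 42.3, 42.9 and 26.6 in the control arrays and 131, 151 and 142 in the mutant arrays (1.95 ± 0.22, adjusted p = 0.00914). Mutants and controls were separate at all 16, but these were picked by the test of that same difference, so the separation is no further evidence. The share of separate probe sets over all 9100 is not given here. Over the whole series matrix 63 of 18769 probe sets passed (0.336%), 20 higher and 43 lower, and the count was 40 without control 2 and 144 without control 3. Without control 3, 43 of the probe sets found only in the matrix passed.

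The same genotypes were also compared after 24 h of starvation, and each probe set was tested for whether its genotype difference was the same on both diets. In starved larvae 736 probe sets passed (7.61%), 358 lower (3.7%) and 378 higher (3.91%) in mutants. Of the 102 called in fed larvae, 67 passed in the same direction in starved larvae, which is 65.7% of the fed calls and 9.10% of the starved calls. In 5 the direction was opposite with both passing, and the other 30 did not pass when starved. The test of the difference itself passed at 250 of 9669 probe sets (2.59%), 30 of them among the 102. Of these 30, the difference was larger when starved at 17 and smaller or reversed at 13. The count of 250 varied with the array left out. It was 132 without control fed 1, 125 without control fed 2, 549 without control fed 3, 140 without mutant fed 1, 113 without mutant fed 2 and 88 without mutant fed 3. Among starved arrays it was 85, 174 and 88 without controls 1, 2 and 3, and 113, 447 and 81 without mutants 1, 2 and 3.

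In mitochondrial β-oxidation 11 of 19 genes fell in starved mutants, and 7 passed the test of the difference, all 7 with a larger fall when starved. yip2 stood at -3.34 ± 0.16 in starved larvae, -1.29 ± 0.23 away from its fed difference (adjusted p = 0.0165). colt stood at -2.19 ± 0.09, -1.37 ± 0.13 from the fed difference (adjusted p = 0.00072), and scu at -2.45 ± 0.12, -1.28 ± 0.16 from it (adjusted p = 0.00382). These genes were lower in mutants on both diets and more so when starved. whd, in contrast, stood at -0.31 ± 0.10 in starved larvae and did not pass there (adjusted p = 0.103), but the test of the difference did not pass either (0.56 ± 0.15, adjusted p = 0.0765). Tmlh (-1.41 ± 0.14 starved) and Hacl (-1.16 ± 0.14 starved) had differences between diets of -0.01 ± 0.20 and 0.01 ± 0.20, with adjusted p of 0.985 and 0.984.

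Other called genes showed a genotype difference that was smaller or reversed when starved, while the rises of Cyp6w1 and CG9289 were larger. Obp56e stood at -0.35 ± 0.11 when starved (adjusted p = 0.0805), and the change from the fed difference was 1.47 ± 0.15 (adjusted p = 0.00114). CG18473 stood at -0.15 ± 0.16 when starved (adjusted p = 0.684), with a change of 1.14 ± 0.22 (adjusted p = 0.0274). retm, which fell on food (-0.51 ± 0.08, adjusted p = 0.00796), rose in starved mutants (0.41 ± 0.08, adjusted p = 0.0086), and Gug did so too (0.25 ± 0.07 starved, adjusted p = 0.0484). CG16904 rose on food and fell when starved (-0.94 ± 0.14, adjusted p = 0.0026). Among the rises, Cyp6w1 read 556, 751 and 734 in starved controls and 12456, 12703 and 16548 in starved mutants (4.35 ± 0.16, adjusted p = 5.75e-08), far more than its fed rise, with a change of 3.33 ± 0.23 (adjusted p = 5.79e-05). CG9289 read 28.1, 33.9 and 34.7 in starved controls and 1857, 1573 and 2287 in starved mutants (5.87 ± 0.16, adjusted p = 7.32e-09), and starved mutants were the brightest group.

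**Figure D5:**
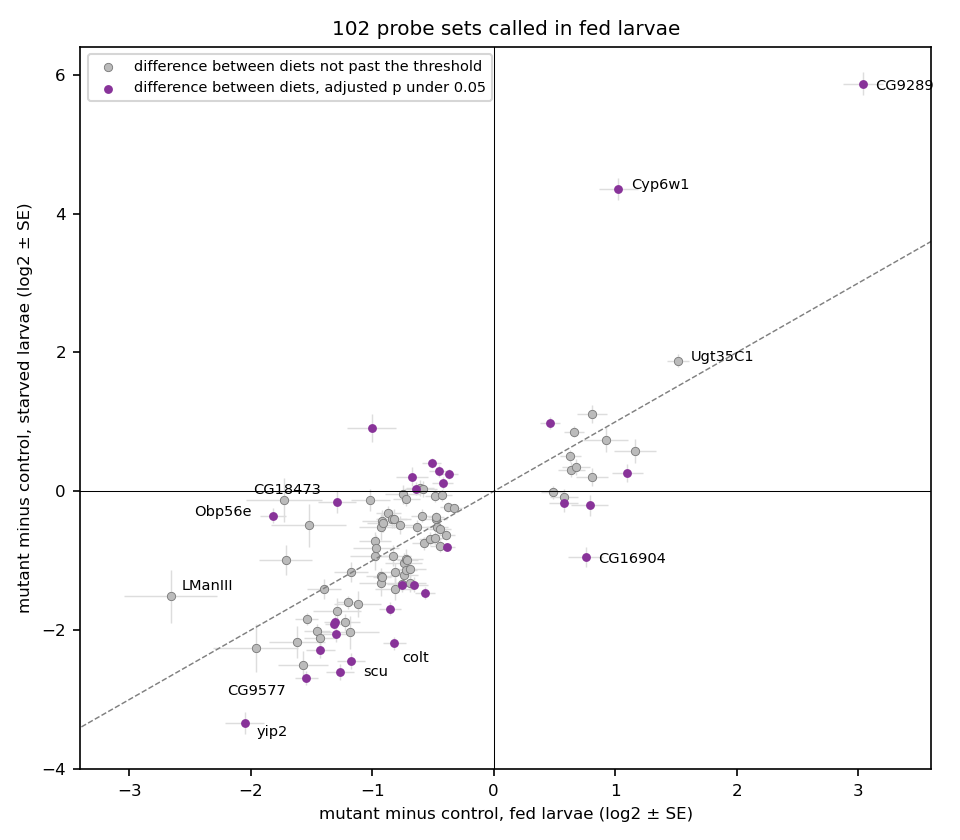
Each of the 102 probe sets called in fed larvae is plotted by mutant minus control in fed larvae (x axis, log2 ± SE) and in starved larvae (y axis, log2 ± SE), with the dashed line marking equal differences. The 30 purple points differed between diets at an adjusted p of 0.05, with Cyp6w1 and CG9289 far above the line, yip2, CG9577, scu and colt below it, and CG16904 on opposite sides of 0.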

How the data were processed

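RNA of whole larvae was labelled by the one-cycle biotin method and hybridised to Affymetrix Drosophila Genome 2.0 arrays, per the labels' protocols, with 3 arrays per group prepared in triplicate. The labels do not say whether the triplicates came from separate cultures, so p-values measure the spread between these samples. The main table holds intensity values normalized by the authors in dChip, Present calls only, per the file headers; version, model and baseline are not given in the sources used here. The series matrix holds deposited intensity values of 18769 probe sets without the 183 array controls, processed in a way not given in the sources used here. For each of the 12 samples the dChip column correlated best with the matrix column of the same sample. The precision is set by the number of arrays.

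Values under 16 were set to 16 before log2 was taken. A limma model (version 3.58.1, R 4.3.3) estimated a mean for each group from all 12 arrays (lmFit and eBayes, 8 residual and 3.12 prior degrees of freedom). The starved arrays thereby share in the estimate of spread. The Benjamini-Hochberg adjustment ran over all 9669 probe sets (18769 for the series matrix) at 0.05. The code was tested on simulated data.

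Names came from the platform annotation: 1 symbol was listed for 7970 probe sets, several for 248 and none for 1451, and only the first kind was named. For a gene with several probe sets the brightest on average stood for it in a list. Members and gene lists were chosen with earlier results of these data known, so list counts are descriptions. Of the listed members 5 were not found, and 5 that a symbol pattern had caught by mistake were removed after the data were seen. Genes were named by rule: Hnf4, the 18 largest falls and 12 largest rises among called probe sets without overlap, other called genes by list, members of lists with under 3 calls, the genes nearest Hnf4, and the largest changes among probe sets of the matrix alone. Lsp2, Obp99b, Cat, Echs1, Acat1, CG4594 and CG12171 were chosen after their values were seen. Same-numbered mutant and control arrays deviated from their group means with correlations of 0.28, -0.40 and 0.10, so the numbers were not taken as pairs. Promoter and protein sequences were not used here.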

Additional observations from a re-analysis of the deposited data

Results flagged for a closer look

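For 28 of the called genes the genotype difference in starved larvae departed from that in fed larvae in the test of the difference itself (limma, adjusted p under 0.05). Values are the starved difference minus the fed difference on the log2 scale, and the counts rest on 3 arrays in each of 4 groups.

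Genes of fatty acid oxidation and its peroxisomal import made up one set, and all of them had fallen in fed mutants and fell more in starved mutants. The change was -1.29 for yip2, -1.34 for CG4598, -1.37 for colt, -1.28 for scu, -1.15 for CG9577, -0.84 for Arc42, -0.60 for Acadvl, -0.58 for Mtpbeta and -0.59 for Pex5. Dhrs4 (-0.86), CG5321 (-0.75), SLC5A11 (-0.89), CG2604 (-0.69) and CG3663 (-0.42) also fell more when starved.

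Falls that were smaller or reversed when starved gave positive changes, of 1.47 for Obp56e, 1.14 for CG18473, 0.92 for retm, 0.88 for l(3)L1231, 0.68 for Root, 0.62 for Gug and 0.54 for Ipp. The l(3)L1231 call in fed larvae was lost without any 1 of 5 of the 6 fed arrays, control 2 being the exception.

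Rises that were larger when starved were those of Cyp6w1 (3.33), CG9289 (2.84) and CG31436 (0.53). Rises that shrank or turned were those of CG16904 (-1.70), CG17560 (-0.99), CG16762 (-0.84) and CG32750 (-0.75).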

How the results depend on the processing

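Probe sets called in fed larvae numbered 102, and 63 in the series matrix, 193 with array weights (whose estimation stopped before convergence), 41 with the fed arrays alone and 15 with a minimum change of 1.5-fold. Leaving out each array gave 47 to 272. The count stayed within 1.5 times under both other floors, median centring, quantile normalization, a variance trend, the Lsp2 covariate and without the dimmest 40%. Median centring split its 88 calls into 22 higher and 66 lower. With the replicate number as a block 74 passed, though the numbers were not shown to pair arrays. Of 63 calls in the series matrix, 35 were left with a floor of 1, 28 with the replicate block and 9 with fed arrays alone, and leaving out arrays gave 40 to 144. The 250 probe sets whose difference departed between diets became 26 in the series matrix, 132 with the replicate block and 1208 with array weights, and 81 to 549 without single arrays. Values of the 88 called genes did not overlap between genotypes, so leaving out arrays or changing the floor could not turn a direction. None changed direction under the other settings either. In every setting tried the call held for 14, yip2, Acadvl, Mtpbeta, CG4598, CPT2, Tmlh, CG5321, CG9577, Acox57D-d, Hsdl2, Dhrs4, CG6178, Ugt35C1 and CG9289. The β-oxidation list held 9 or 10 falls except with the minimum change, where it held 5, and the peroxisomal list held 2 to 8. The causes of these changes were not tested. Values near the floor limit what dim probe sets can show, and 3 arrays a group limit the rest.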
